A study of Mesocricetus auratus with 24 samples.

Results

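The genes described here were the ATP-binding cassette (ABC) genes measured in the inferior colliculus (IC), the midbrain auditory nucleus in which sound-induced seizures of audiogenic strains begin. The members were the 48 genes of families A to G whose symbol is Abc followed by a family letter and a number, of 19938 genes tested in all. They were chosen by name and not by their values. They came from 49 probe sets with 1 symbol, because Abcb5 had a pair of probe sets and the one with the higher mean signal was kept, and 0 ABC probe sets were shared with another gene.

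Total RNA of 24 hamsters (Mesocricetus auratus) was read on mouse whole-transcript arrays, 1 array per animal. The 4 groups of 6 animals were control Syrian hamsters without sound exposure (naïve Syrian), control Syrian hamsters after auditory stimulation (stimulated Syrian), GASH/Sal hamsters without exposure (naïve GASH/Sal) and GASH/Sal hamsters after auditory stimulation (stimulated GASH/Sal). GASH/Sal is the genetic audiogenic seizure hamster of Salamanca, a line derived from Syrian hamsters that convulses when it hears loud sound. All animals were 16 weeks old and weighed about 60 g, and the IC of stimulated animals was taken 60 min after the seizures or, in control Syrian hamsters, after the same procedure. The comparisons asked whether the ABC genes differed after sound in either strain, between the strains with or without sound, and whether the strains responded alike.

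ABC proteins bind and hydrolyse ATP, and most use that energy to move a substrate across a membrane. In brain capillaries P-glycoprotein (Abcb1a and Abcb1b in rodents), breast cancer resistance protein (Abcg2) and several multidrug resistance proteins of family C return drugs, antiepileptic compounds among them, to the blood, and P-glycoprotein has been studied for years in relation to drug-resistant epilepsy. Other members carry cholesterol and phospholipids, fatty acids into peroxisomes or peptides into lysosomes, and families E and F have no membrane part and serve translation.

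The values were log2 probe set signals after RMA, and a difference of 1 on this scale is a 2-fold change. Mouse probes read hamster RNA here, so signals of different genes were not compared as amounts of RNA. Each gene's place among all genes is given only as the percentile of its mean signal. Of the 48 symbols, 34 matched a hamster gene of the same symbol in RefSeq (assembly BCM_Maur_2.0). Abcb1a, Abcb1b, Abcg2, Abcb4, Abcf2 and Abca3 were among those that did not. Which hamster transcripts these mouse probe sets read was not tested. The IC is a mixture of cells, so fewer cells of a type and less RNA per cell cannot be told apart.

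The labelled tissue was checked by markers. All 7 neuronal markers and all 7 markers of IC and midbrain lay above the median gene, with median percentiles of 96.1 and 95.6. The lists share 3 genes (Slc17a6, Gad1 and Gad2), and the 4 markers of IC and midbrain outside the neuronal list also lay above it, with a median percentile of 94.5. Of the markers of other parts, 0 of 5 for choroid plexus, 0 of 2 for telencephalon and 3 of 5 for cerebellum did. How well mouse probes read each hamster marker was not tested, so a low percentile does not show that a tissue was absent. The array medians ran from 4.50 to 4.65, and the Pearson correlation between arrays ran from 0.965 to 0.993. The arrays of stimulated Syrian replicate 4 and naïve GASH/Sal replicate 6 were the least like their groups, each with a mean correlation of 0.969 with its group. Values without them are given beside some of the results they move, not beside all. The labels name the animals in a pair of styles, called label series A (replicates 1 to 3 of every group) and label series B (replicates 4 to 6), which entered the fit as a term because each holds 3 arrays of every group.

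Over all genes almost nothing passed the test. At an adjusted p under 0.05 (limma, Benjamini-Hochberg over 19938 genes), 0% of genes were called for the response to sound in GASH/Sal, 0% for the response in Syrian hamsters, 0% for the strain difference without sound, 0% for the strain difference after sound and 0% for the GASH/Sal response minus the Syrian one. The response to sound averaged over both strains called 1 gene, 0.00502%, which was the immediate-early gene Fos. The strain difference averaged over both sound conditions called 2 genes, 0.0100%, Arl15 and Rasgrf2.

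Of the 48 ABC genes, 0 passed the test in any of the 7 contrasts. The lowest adjusted p of any member was 0.525, for Abce1 in the averaged response to sound. At an unadjusted p under 0.05 the members numbered 2 in the GASH/Sal response, beside 4.46% of all genes, and 1 in the Syrian response, beside 6.64%. They numbered 2 in the naïve strain difference, beside 6.02%, 3 in the stimulated strain difference, beside 5.42%, and 2 in the difference between responses, beside 3.68%. In the averages they numbered 1 for sound, beside 7.39%, and 2 for strain, beside 7.99%. These 13 results of 336 tests came from 8 genes, and in every contrast the share of members, between 2.08% and 6.25%, was near or under that of all genes.

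The groups of 6 arrays overlapped for every member. Of all genes, the groups were fully apart in 0.226% for sound in GASH/Sal, 0.291% for sound in Syrian hamsters, 0.271% for strain without sound and 0.251% for strain after sound, and 0 of 48 members were apart in each. Each 95% interval was for a single gene, with no allowance for the number of tests. It bounds a difference in array signal, and how far mouse probes carry a difference in hamster RNA was not tested. In both responses to sound, both strain differences and both averages, the 95% interval of all 48 members lay within 1.5-fold in either direction. In the difference between responses 47 of 48 did, and the exception was Abcf3, whose interval reached a 1.503-fold lower response in GASH/Sal. A typical 2-group difference had a standard error (SE) of 0.0867 among members and 0.0895 among all genes.

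Abcb1a encodes the P-glycoprotein that exports drugs from brain endothelium, and it was read by probe set 10519527, at percentile 53.7. The lowest, median and highest log2 signals were 4.65, 5.01 and 5.20 in naïve Syrian hamsters and 4.85, 5.09 and 5.48 in stimulated Syrian hamsters. They were 4.42, 5.03 and 5.13 in naïve GASH/Sal and 4.93, 5.08 and 5.26 in stimulated GASH/Sal. All 4 groups overlapped, and the widest spread was that of naïve GASH/Sal, where replicate 2 at 4.42 lay well under the next array at 4.97. The group means were 4.97 ± 0.213 and 5.12 ± 0.221 in naïve and stimulated Syrian hamsters, and 4.94 ± 0.265 and 5.09 ± 0.126 in naïve and stimulated GASH/Sal (SD, n = 6).

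The mean Abcb1a signal was higher after sound by nearly the same amount in both strains, and neither difference passed the test. In GASH/Sal it was 0.15 higher on the log2 scale (SE 0.111, 95% interval -0.078 to 0.37, 1.11-fold, limma adjusted p = 0.999), and 5 of the 6 stimulated animals exceeded the naïve mean. In Syrian hamsters it was also 0.15 higher (SE 0.111, interval -0.074 to 0.38, adjusted p = 0.831), and again 5 of 6 exceeded the naïve mean. The averaged response was 0.15 (SE 0.0783, interval -0.0099 to 0.31, adjusted p = 0.679), and the upper end of its interval was 1.24-fold. Without the arrays least like their groups it was 0.13.

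The label series did not show the same response. In GASH/Sal the Abcb1a difference was 0.34 within series A and -0.048 within series B, and in Syrian hamsters it was 0.047 within series A and 0.26 within series B. Single arrays also carried much of each value. Without naïve GASH/Sal replicate 2 the GASH/Sal difference was 0.048 and the average over both strains was 0.0999. Without naïve Syrian replicate 6 the Syrian difference was 0.074, and without stimulated Syrian replicate 4 it was 0.087.

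Over both label series together the mean Abcb1a signal differed little between the strains, but the series went opposite ways. GASH/Sal minus Syrian was -0.024 without sound (SE 0.111) and -0.027 after sound (SE 0.111), and the average was -0.025 (SE 0.0783, interval -0.19 to 0.13). The GASH/Sal response minus the Syrian response was -0.0039, with a wide interval of -0.32 to 0.32. Within series A and series B the strain difference was -0.12 and 0.076 without sound, and 0.17 and -0.23 after sound. The difference between the responses was 0.30 within series A and -0.30 within series B. In an exact two-sided permutation test within the label series, with 400 arrangements and a smallest possible p of 0.005, the p was 0.285 for sound in GASH/Sal, 0.26 for sound in Syrian hamsters, 0.85 for strain without sound and 0.805 for strain after sound. Adjusted over these 4 tests the values were 0.57, 0.57, 0.85 and 0.85.

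Abcb1b, the second rodent P-glycoprotein, lay among the dim genes at percentile 13.3. Its signals were 3.06, 3.25 and 3.39 (lowest, median, highest) in naïve Syrian, 2.88, 3.10 and 4.12 in stimulated Syrian, 3.14, 3.26 and 3.37 in naïve GASH/Sal and 2.93, 3.29 and 3.45 in stimulated GASH/Sal. The groups overlapped, and 1 array, stimulated Syrian replicate 4, held the highest value. Its responses to sound were 0.057 in Syrian hamsters and -0.017 in GASH/Sal (SE 0.122 each), with no call. Without that array the Syrian response was -0.093 and the average over both strains moved from 0.020 to -0.055, so the sign in Syrian hamsters and in the average rested on it.

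Abcg2, breast cancer resistance protein, exports drugs and urate. Its signals were 3.59, 3.99 and 4.07 in naïve Syrian, 3.71, 3.97 and 4.32 in stimulated Syrian, 3.53, 3.83 and 4.18 in naïve GASH/Sal and 3.66, 3.89 and 4.15 in stimulated GASH/Sal. The averaged response to sound was 0.087 (SE 0.0654, interval -0.05 to 0.22, adjusted p = 0.774), which was the highest among the pumps after Abcb1a. The averaged strain difference was -0.085 (SE 0.0654, adjusted p = 0.746), and all groups overlapped. Abcg2 was also higher in label series B than in A by 0.23 (SE 0.0654, limma adjusted p = 0.0249), a larger value than that of sound or strain.

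Abcc1 (MRP1) exports glutathione conjugates. Its signals were 4.61, 4.85 and 5.11 in naïve Syrian, 4.54, 4.79 and 5.08 in stimulated Syrian, 4.58, 4.78 and 4.89 in naïve GASH/Sal and 4.57, 4.85 and 5.20 in stimulated GASH/Sal. The response to sound was -0.056 in Syrian hamsters and 0.098 in GASH/Sal (SE 0.102 each), and the difference between them, 0.15, had an interval of -0.14 to 0.45.

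Abcc4 (MRP4) exports cyclic nucleotides and prostanoids. Its signals were 4.62, 4.95 and 5.24 in naïve Syrian, 4.75, 4.83 and 5.72 in stimulated Syrian, 4.62, 4.99 and 5.34 in naïve GASH/Sal and 4.95, 5.05 and 5.23 in stimulated GASH/Sal. The highest value again came from stimulated Syrian replicate 4. Abcc4 had the widest spread within groups of any member, with a residual SD of 0.239, and its averaged response to sound was 0.069 (SE 0.0866). Without that array the average was 0.0020, and the Syrian response turned from 0.032 to -0.10.

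Abcc5 (MRP5) exports cyclic nucleotides and was the pump at the highest percentile, 66.5. Its signals were 5.37, 5.45 and 5.55 in naïve Syrian, 5.39, 5.55 and 5.62 in stimulated Syrian, 5.38, 5.47 and 5.52 in naïve GASH/Sal and 5.40, 5.48 and 5.58 in stimulated GASH/Sal. It had the narrowest spread of any member, a residual SD of 0.0614, and its responses to sound were 0.068 in Syrian hamsters and 0.017 in GASH/Sal (SE 0.0607 each). All 4 groups overlapped, and Abcc5 was called in no contrast.

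**Figure D1:**
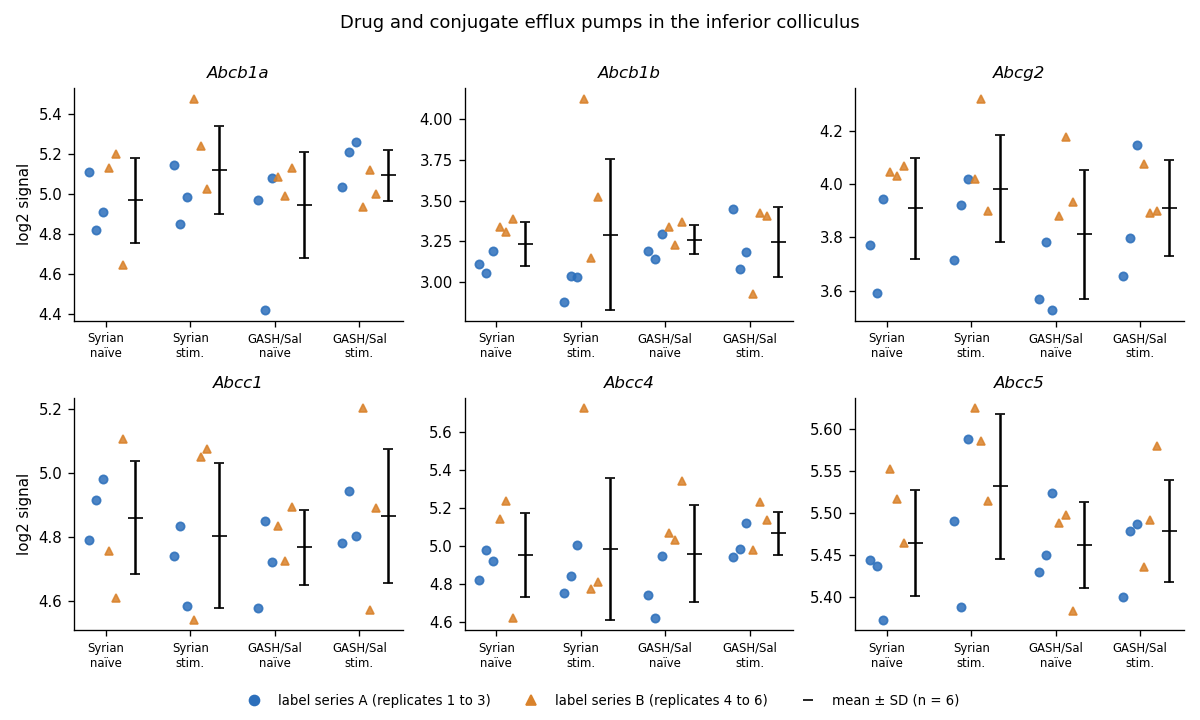
Log2 signal of 6 efflux pump genes in each of 24 arrays by group, with circles for label series A, triangles for label series B and bars for the mean ± SD of 6 arrays. All groups overlap for every gene, naïve GASH/Sal replicate 2 is the low Abcb1a array at 4.42, and stimulated Syrian replicate 4 is the high array of Abcb1b (4.12) and Abcc4 (5.72). The vertical scale differs between panels.

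The other pumps were Abcc2 and Abcc3, which export organic anions, Abcc6, which is needed for ATP release, and Abcc10 and Abcc12. The averaged response of Abcb1a was 0.15, or 0.0999 without naïve GASH/Sal replicate 2. Over all arrays the 10 remaining pumps each had a lower averaged response than Abcb1a, and the gaps were not tested. Their averaged responses ran from -0.034 (Abcc6) to 0.087 (Abcg2) with a median of 0.028, and 9 of 10 lay above 0, while over all genes the median was 0.015 and 58.3% lay above 0. Their averaged strain differences ran from -0.085 (Abcg2) to 0.050 (Abcc10) with a median of -0.015, and 3 of 10 lay above 0, beside 42.6% of all genes and a median of -0.015. None of the 10 had an unadjusted p under 0.05 in any contrast, and the signs of all genes leaned the same way, so the sign counts are a description only. They also rested on stimulated Syrian replicate 4. Without it 5 of the 10 pumps lay above 0 in the averaged response, with a median of -0.0031, beside 54.2% of all genes and a median of 0.0074, and 6 of 10 lay above 0 in the averaged strain difference, beside 45.6%. In the Syrian response 7 of 10 lay above 0 with that array and 3 of 10 without it, with medians of 0.028 and -0.063. The mean of the 10 pumps per array was 4.65 ± 0.0443 and 4.66 ± 0.156 in naïve and stimulated Syrian hamsters, and 4.62 ± 0.0647 and 4.66 ± 0.0514 in naïve and stimulated GASH/Sal (SD, n = 6). Stimulated Syrian replicate 4 stood at 4.95, and the other 5 arrays of its group had a mean of 4.602 ± 0.0691, under that of naïve Syrian hamsters.

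The 8 housekeeping genes, those for translation and for transport within mitochondria and lysosomes, all lay above the median gene, at percentiles from 56.9 (Abce1) to 88.7 (Abcf1). Of the 11 efflux pumps, 5 lay above it, from 13.3 (Abcb1b) to 66.5 (Abcc5). After sound, 7 of the 8 housekeeping genes lay above 0 in Syrian hamsters, with a median of 0.13, and 3 of 8 did in GASH/Sal, with a median of -0.030. The medians of all genes were 0.019 and 0.013. The difference between the responses was below 0 in 6 of the 8 genes, with a median of -0.072, but only Abcf3 had an unadjusted p under 0.05 for it and none passed the test over all genes. Without stimulated Syrian replicate 4 the Syrian count was again 7 of 8, with a median of 0.099, and the difference between the responses was again below 0 in 6 of 8, with a median of -0.062. Their mean per array was 5.77 ± 0.141 and 5.89 ± 0.0841 in naïve and stimulated Syrian hamsters, and 5.81 ± 0.0647 and 5.81 ± 0.0453 in naïve and stimulated GASH/Sal (SD, n = 6). Naïve Syrian replicate 2 was the lowest array at 5.51, with the next of its group at 5.73. Part of the Syrian difference thus rested on that array, and the counts without it were not computed.

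Abce1, which splits ribosomes after termination so that they can be used again, had the highest response to sound of any member in the average and in GASH/Sal. Its signals were 4.61, 5.07 and 5.19 (lowest, median, highest) in naïve Syrian and 5.03, 5.24 and 5.37 in stimulated Syrian. They were 4.46, 5.14 and 5.30 in naïve GASH/Sal and 5.19, 5.28 and 5.35 in stimulated GASH/Sal. In both strains the lower ends differed most, and naïve Syrian replicate 2 (4.61) and naïve GASH/Sal replicate 6 (4.46) were the low arrays.

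The averaged Abce1 response was 0.22 (SE 0.0763, interval 0.062 to 0.38, 1.16-fold), with an unadjusted p of 0.00714 and a limma adjusted p of 0.525. It was 0.22 in each strain, all 6 stimulated animals exceeded the naïve mean in both, and 0.27 within label series A and 0.17 within series B. Leaving out 1 array at a time the average stayed between 0.16 and 0.25. Without the arrays least like their groups it was 0.18, with 0.27 in Syrian hamsters and 0.094 in GASH/Sal. The low arrays, naïve Syrian replicate 2 and naïve GASH/Sal replicate 6, were not left out together. In GASH/Sal alone the difference was 0.097 without naïve GASH/Sal replicate 6, the value farthest from the one over all arrays. Its unadjusted p, 0.0478 (limma) over all arrays, was no longer under 0.05 in 15 of the 24 settings that left out 1 array.

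Abcf1, which acts in translation initiation, had signals of 6.32, 6.63 and 6.69 in naïve Syrian, 6.37, 6.54 and 6.64 in stimulated Syrian, 6.49, 6.53 and 6.82 in naïve GASH/Sal and 6.27, 6.55 and 6.75 in stimulated GASH/Sal. Abcf2 had signals of 5.95, 6.40 and 6.54 in naïve Syrian, 6.27, 6.35 and 6.56 in stimulated Syrian, 6.30, 6.43 and 6.63 in naïve GASH/Sal and 6.21, 6.35 and 6.67 in stimulated GASH/Sal. For both genes the groups overlapped over most of their range. The averaged response to sound was -0.062 for Abcf1 (SE 0.0535) and -0.0015 for Abcf2 (SE 0.0614), so that Abce1 was the only one of these 4 factors above 0.

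Abcf3 was the member whose response to sound differed most between the strains. Its signals were 5.67, 5.74 and 5.82 in naïve Syrian, 5.70, 5.90 and 6.11 in stimulated Syrian and 5.58, 5.74 and 5.97 in stimulated GASH/Sal, and they ran from 5.72 to 6.14 with a mean of 5.96 in naïve GASH/Sal. The group means were 5.75 in naïve Syrian, 5.90 in stimulated Syrian, 5.96 in naïve GASH/Sal and 5.77 in stimulated GASH/Sal. The groups overlapped. The response was 0.15 in Syrian hamsters (SE 0.0864, unadjusted p = 0.0917, limma) and -0.19 in GASH/Sal (SE 0.0864, unadjusted p = 0.0378, limma), and GASH/Sal exceeded Syrian by 0.21 without sound (unadjusted p = 0.0218, limma). Without the arrays least like their groups the GASH/Sal response was -0.15 and the difference without sound 0.17, with unadjusted p of 0.0996 and 0.0609 (limma). With 1 array left out at a time the unadjusted p was no longer under 0.05 in 8 of 24 settings for the GASH/Sal response and in 2 of 24 for the difference without sound.

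The difference between the 2 Abcf3 responses was -0.34 (SE 0.122, interval -0.59 to -0.09, unadjusted p = 0.00956, limma) with an adjusted p of 0.99996. It was -0.33 within label series A and -0.35 within series B, stayed between -0.39 and -0.30 with 1 array left out at a time, and was -0.27 without the arrays least like their groups. It did not pass over all genes, of which 3.68% had an unadjusted p under 0.05.

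**Figure D2:**
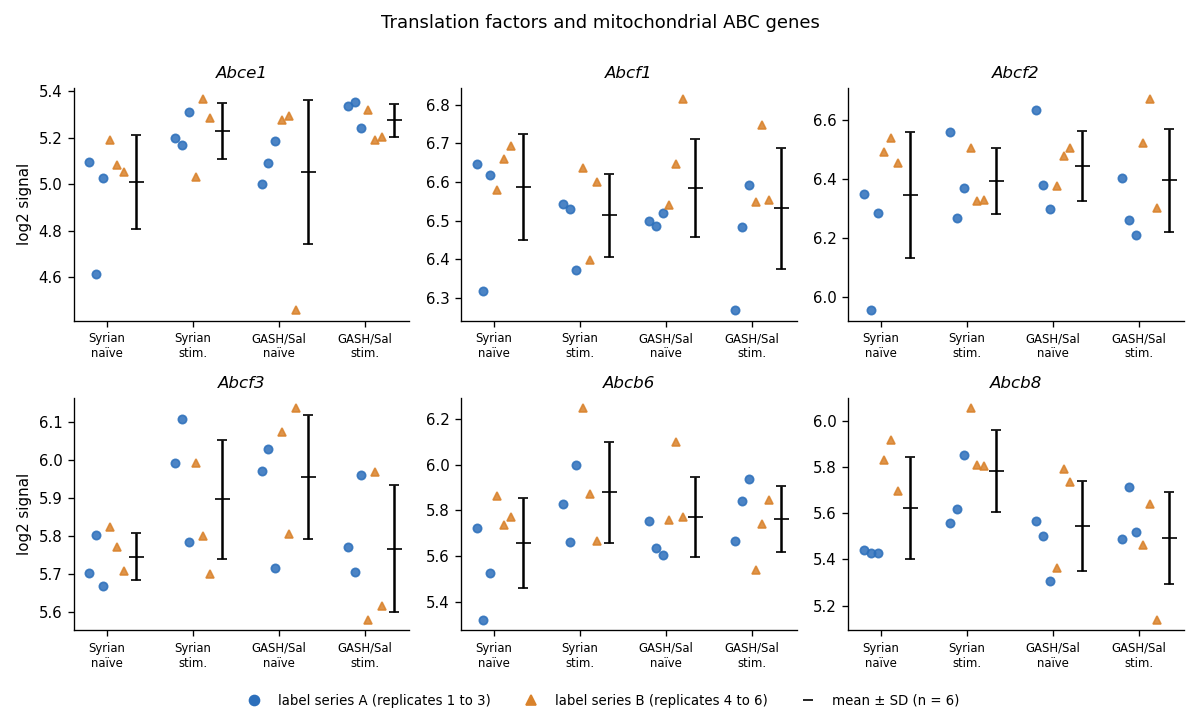
Log2 signal of 4 translation factors (Abce1, Abcf1, Abcf2, Abcf3) and 2 mitochondrial or lysosomal genes (Abcb6, Abcb8) in each of 24 arrays by group, with circles for label series A, triangles for label series B and bars for the mean ± SD of 6 arrays. All 6 stimulated Abce1 arrays sit above the naïve mean in both strains. The Abcf3 mean is highest in naïve GASH/Sal and next in stimulated Syrian, and its groups overlap. The vertical scale differs between panels.

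The partners of these factors in translation were read beside them. Of 7 listed, 5 were tested, and 4 of the 5 lay above 0 in the averaged response to sound, with a median of 0.18 beside 0.015 for all genes. Etf1, the factor that ends translation at stop codons, differed by 0.26 (SE 0.104, unadjusted p = 0.0169, limma), and Eif2s3x, a subunit of the initiation factor that brings the first transfer RNA, by 0.21 (SE 0.0749, unadjusted p = 0.00835, limma). Neither passed the test over all genes, with adjusted p of 0.586 and 0.538. Both were larger in label series A, at 0.51 and 0.33, than in series B, at 0.012 and 0.093.

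The ABC genes of mitochondria and lysosomes were Abcb6, a porphyrin transporter, Abcb8 and Abcb10 of the mitochondrial inner membrane, Abcb10 being tied to haem synthesis, and Abcb9, the lysosomal peptide transporter. All 4 lay above 0 in the Syrian response, with a median of 0.14, and all 4 lay below 0 in the stimulated strain difference, with a median of -0.12. The 2 contrasts share the stimulated Syrian arrays, 1 of which is the array least like its group. Without that array 4 of 4 lay above 0 in the Syrian response, with a median of 0.099, and 3 of 4 below 0 in the stimulated strain difference, with a median of -0.071. In the naïve Syrian group replicate 2 was low for Abcb10, at 5.13 with the next array at 5.58. The counts without naïve Syrian replicate 2 were not computed.

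Abcb6 signals were 5.32, 5.73 and 5.86 in naïve Syrian, 5.66, 5.85 and 6.25 in stimulated Syrian, 5.60, 5.76 and 6.10 in naïve GASH/Sal and 5.54, 5.79 and 5.94 in stimulated GASH/Sal. The Syrian response was 0.22 (SE 0.0987, unadjusted p = 0.0322, limma adjusted p = 0.740), and 6 of 6 stimulated animals exceeded the naïve mean. The response was 0.16 without stimulated Syrian replicate 4 and 0.16 without naïve Syrian replicate 2. In each of these settings the unadjusted p was no longer under 0.05 (limma). In GASH/Sal the response was -0.010, and the difference between the strains, -0.23, had an interval of -0.52 to 0.052.

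Abcb8 was the member with the largest strain difference after sound. Its signals were 5.43, 5.57 and 5.92 in naïve Syrian, 5.56, 5.81 and 6.06 in stimulated Syrian, 5.31, 5.54 and 5.79 in naïve GASH/Sal and 5.14, 5.50 and 5.71 in stimulated GASH/Sal. The stimulated groups overlapped between 5.56 and 5.71. GASH/Sal minus Syrian was -0.29 after sound (SE 0.101, interval -0.49 to -0.084, unadjusted p = 0.00731, limma adjusted p = 0.887) with 6 of 6 GASH/Sal arrays under the Syrian mean, and -0.18 in the average of both sound conditions (SE 0.0711, unadjusted p = 0.0147, limma adjusted p = 0.581). The difference after sound was -0.10 within label series A and -0.48 within series B. With 1 array left out at a time it stayed between -0.35 and -0.20, and it was -0.25 without the arrays least like their groups.

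**Figure D3:**
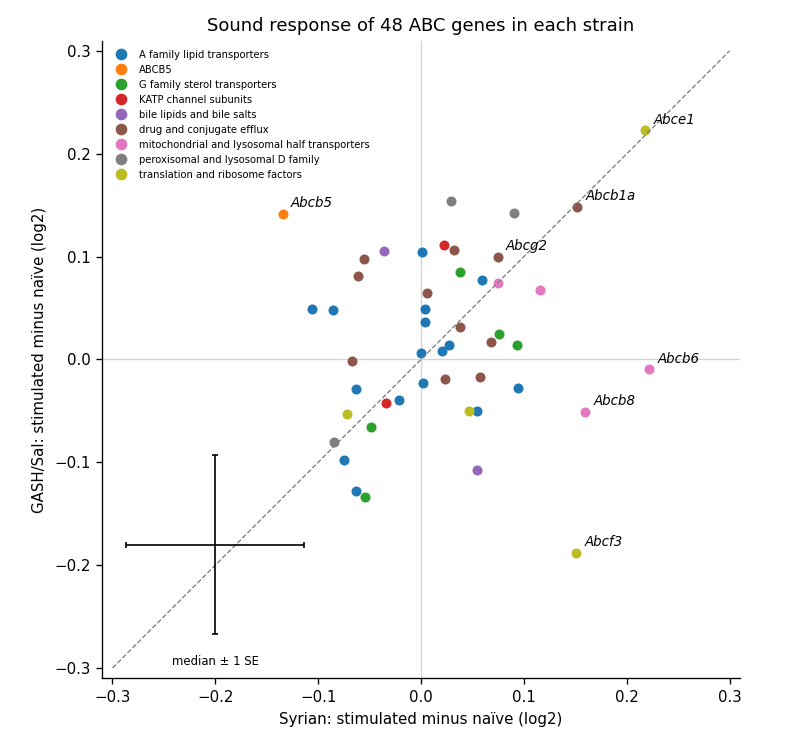
Log2 difference between stimulated and naïve animals in Syrian hamsters (horizontal) and in GASH/Sal (vertical) for the 48 ABC genes, coloured by class, with a dashed line of equal response and a cross of 1 median SE. Abce1 (0.22 in both) and Abcb1a (0.15 in both) lie on the line, while Abcf3, Abcb6, Abcb8 and Abcb5 lie farthest from it.

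Abcb5, a plasma membrane transporter, was the counterpart of Abcf3, with the highest positive difference between the responses. Its signals were 3.59, 3.68 and 3.88 in naïve Syrian, 3.35, 3.53 and 3.93 in stimulated Syrian, 3.48, 3.53 and 3.62 in naïve GASH/Sal and 3.56, 3.68 and 3.79 in stimulated GASH/Sal. It lay at percentile 19.8, among dim genes. The response was -0.13 in Syrian hamsters and 0.14 in GASH/Sal (SE 0.0789 each), and the difference between them was 0.28 (SE 0.112, interval 0.048 to 0.50, unadjusted p = 0.0192, limma), which did not pass over all genes. It was 0.19 within label series A and 0.36 within series B. It was 0.34 without the arrays least like their groups. Over the alternative ways of processing other than leaving out 1 array, it ran from 0.12 to 0.36. Without stimulated Syrian replicate 4 the Syrian response was -0.20. Without sound GASH/Sal minus Syrian was -0.17 (unadjusted p = 0.0416, limma adjusted p = 0.804). With 1 array left out at a time, the unadjusted p of that strain difference was no longer under 0.05 in 7 of 24 settings.

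The 16 genes of family A, mostly lipid transporters, ran from percentile 4.07 (Abca16) to 92.4 (Abca2), and 4 of 16 lay above the median gene. Abca2, an endolysosomal protein of myelin-forming cells, Abca7, a phospholipid transporter tied to phagocytosis, Abca3, known for surfactant lipids, and Abca1, which hands cholesterol to lipid-poor apolipoproteins, were the 4. Abca4, Abca6, Abca8a, Abca8b, Abca9, Abca12, Abca13, Abca14, Abca15 and Abca17 lay below it, as did Abca5. The averaged responses of the family ran from -0.096 (Abca2) to 0.069 (Abca17), with a median of 0.0025, and 9 of 16 lay above 0. Without the arrays least like their groups 7 of 16 did, with a median of -0.018.

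Strain rather than sound gave the lowest p-values of family A. Abca3 signals were 4.81, 5.17 and 5.37 in stimulated Syrian hamsters and 5.22, 5.31 and 5.56 in stimulated GASH/Sal, with overlap between 5.22 and 5.37. The difference was 0.19 (SE 0.0847, unadjusted p = 0.0316, limma adjusted p = 0.901) and 0.11 without stimulated Syrian replicate 4. Abca5 signals were 4.499, 4.66 and 4.84 in naïve Syrian, 4.40, 4.57 and 4.75 in stimulated Syrian, 4.34, 4.77 and 5.07 in naïve GASH/Sal and 4.58, 4.72 and 4.84 in stimulated GASH/Sal. Its averaged strain difference was 0.12 (SE 0.058, unadjusted p = 0.0419, limma adjusted p = 0.617), 0.13 within series A, 0.12 within series B and 0.15 without the arrays least like their groups, but it kept an unadjusted p under 0.05 in 10 of 24 settings that left out 1 array.

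Abca2 had the highest averaged strain difference of any member, 0.13 (SE 0.0778, interval -0.025 to 0.29, limma adjusted p = 0.661). Its signals were 6.69, 6.84 and 6.997 in naïve Syrian, 6.69, 6.76 and 6.94 in stimulated Syrian and 6.47, 6.91 and 7.18 in stimulated GASH/Sal, and they ran from 6.49 to 7.74 with a mean of 7.01 in naïve GASH/Sal. The GASH/Sal arrays lay on both sides of the Syrian arrays, and the strain difference was -0.11 within label series A and 0.38 within series B. Without naïve GASH/Sal replicate 6 it was 0.077. Of 5 oligodendrocyte markers tested, 5 lay above 0 in the same contrast, with a median of 0.065, and Cnp, a myelin enzyme, differed by 0.22 (SE 0.0661, limma adjusted p = 0.422). Without naïve GASH/Sal replicate 6, 4 of the 5 lay above 0. The mean of the 5 markers per array ran from 5.85 to 6.10 in naïve Syrian, 5.93 to 6.23 in stimulated Syrian, 5.89 to 6.23 in naïve GASH/Sal and 6.03 to 6.23 in stimulated GASH/Sal, and their part in the Abca2 values was not tested.

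The 5 sterol transporters of family G were Abcg1 and Abcg4, which carry cholesterol out of cells, Abcg5 and Abcg8, the export pair for plant sterols, and Abcg3. Abcg1 was the member at the highest percentile, 93.5, and Abcg4 lay at 89.5. Their averaged responses to sound were -0.094 for Abcg1 and -0.057 for Abcg4, and those of the other 3 ran from 0.050 to 0.062. Without stimulated Syrian replicate 4 the Syrian response of Abcg8 turned from 0.094 to -0.019. No gene of the family had an unadjusted p under 0.05 in any contrast. Of 12 listed partners in sterol sensing and lipoproteins, 9 were tested and 8 lay below 0 in the averaged response, with a median of -0.067 beside 0.015 for all genes. Srebf1, a master regulator of lipid synthesis, had the only unadjusted p under 0.05 in that average, at -0.11 (SE 0.0538, unadjusted p = 0.0439, limma adjusted p = 0.660). Without naïve GASH/Sal replicate 6, 7 of the 9 lay below 0 and 0 had an unadjusted p under 0.05.

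The remaining classes were small. The peroxisomal Abcd2 and Abcd3, which bring in fatty acids, had averaged responses to sound of 0.12 and 0.092, and Abcd4, which serves cobalamin export from lysosomes, of -0.083. Without naïve GASH/Sal replicate 6 the GASH/Sal response of Abcd3 fell from 0.15 to 0.035. The sulphonylurea receptors of ATP-sensitive potassium channels, Abcc8 (SUR1) and Abcc9 (SUR2), had averaged responses of -0.038 and 0.066 and averaged strain differences of 0.0054 and -0.13. Without naïve GASH/Sal replicate 6 the GASH/Sal response of Abcc8 turned from -0.042 to 0.027. Abcc9 had the lowest strain difference without sound of any member, -0.173, with a lower interval end of -0.36 and no call. Its signals were 4.51, 4.72 and 5.13 in naïve Syrian hamsters and 4.42, 4.51 and 4.92 in naïve GASH/Sal, with overlap. Abcb4, the phosphatidylcholine floppase of bile, had an averaged response of 0.035. Abcb11, the bile salt export pump, had signals of 3.44, 3.64 and 3.69 in stimulated Syrian hamsters and 3.28, 3.41 and 3.63 in stimulated GASH/Sal, with overlap, and differed by -0.17 (SE 0.0753, unadjusted p = 0.0313, limma adjusted p = 0.901), or by -0.15 without the arrays least like their groups.

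**Figure D4:**
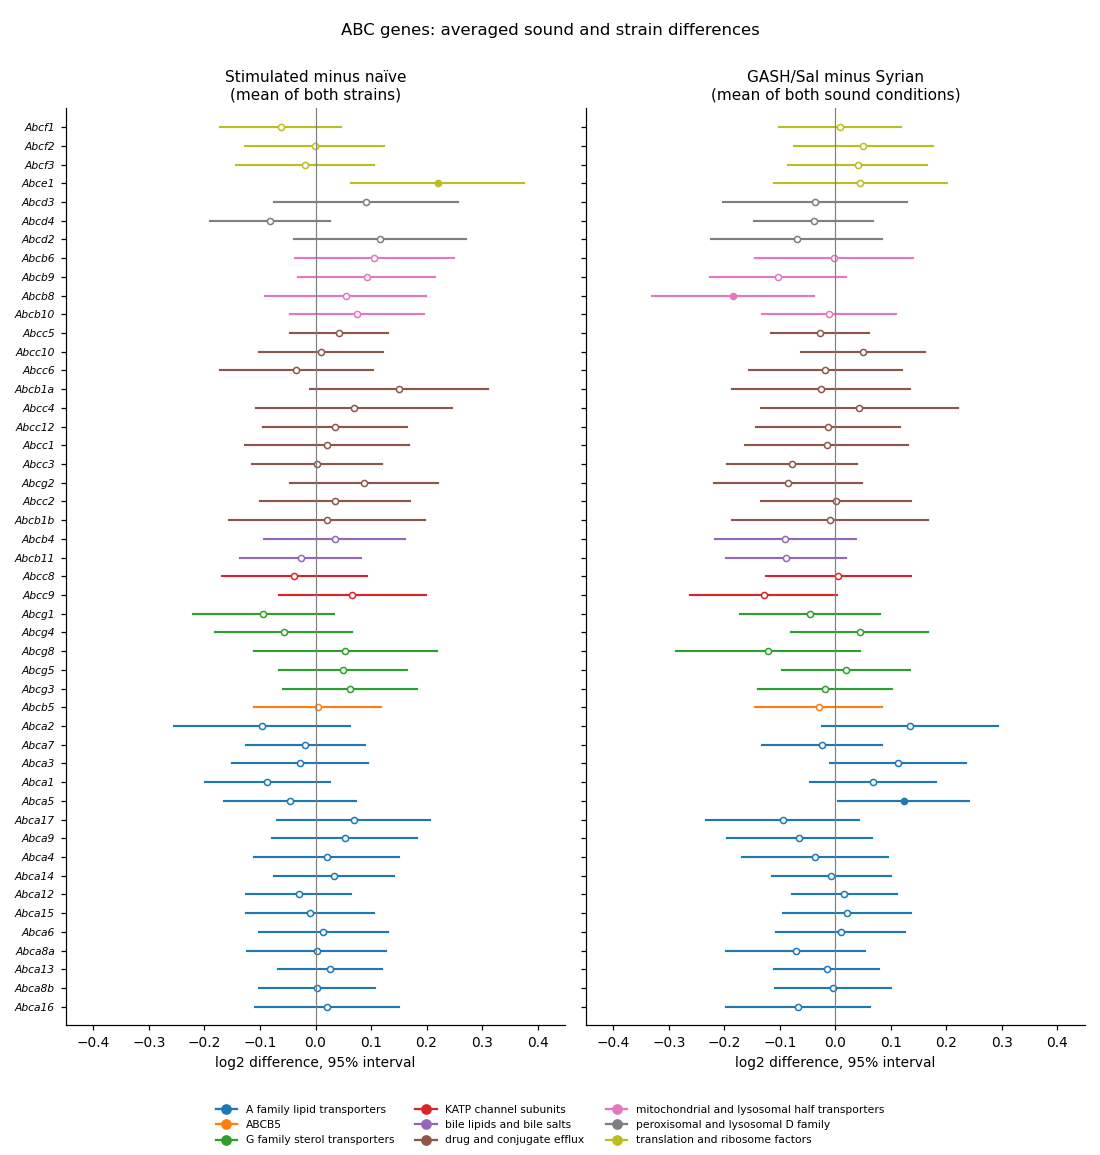
Log2 difference with its 95% interval for each of the 48 ABC genes, coloured by class and ordered by percentile within class, for sound averaged over both strains (left) and strain averaged over both sound conditions (right). Filled points have an unadjusted p under 0.05: Abce1 on the left, Abcb8 and Abca5 on the right.

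Over all 48 members, 32 lay above 0 in the averaged response to sound, 66.7% beside 58.3% of all genes, with a median of 0.021 beside 0.015. In the averaged strain difference 17 lay above 0, 35.4% beside 42.6% of all genes, with a median of -0.016 beside -0.015. In the GASH/Sal response 28 lay above 0 and in the Syrian response 31. These counts moved with stimulated Syrian replicate 4: without it 25 lay above 0 in the averaged response, 52.1% beside 54.2% of all genes, 25 in the averaged strain difference, 52.1% beside 45.6%, and 21 in the Syrian response, 43.8% beside 51.9%. The residual SD, the spread left within groups, had a median of 0.148 among members and 0.156 among all genes.

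Over all genes the label series gave more calls than sound or strain did, and the share of members called was near that of all genes. Of all genes 6.89% were called for series B minus A at an adjusted p under 0.05, 1171 higher and 203 lower in B, and of the members 4 of 48 were called, 8.33%, all higher in B. Abca2 was 0.36 higher in B (SE 0.0778, limma adjusted p = 0.00395), Abcg4 0.35 higher (SE 0.0605, adjusted p = 0.000356), Abcc8 0.24 higher (SE 0.0638, adjusted p = 0.0206) and Abcg2, as given above, 0.23 higher. Abcb1a was 0.099 higher in B and was not called (SE 0.0783, adjusted p = 0.535). What the series stands for is not stated in the labels, and its part in other results was not tested beyond the values given within each series.

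The members also varied among themselves within groups. After the group and series means were removed, the 1128 pairs of members had a median Pearson r of 0.076 over the 24 arrays, with 49 pairs over 0.5 and 34 under -0.5. Without the arrays least like their groups, 28 and 23 pairs did so. The highest pair was Abcd3 with Abce1, with r of 0.84 (Spearman rho 0.53) and 0.58 without those arrays. Abca4 with Abcc10 came next, with r of 0.77 (rho 0.74) and 0.76 without them. These are descriptions over arrays that share groups and hybridisation, and they carry no test.

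Abcb1a was set against every gene in the same way. Its r with the other genes had a median of 0.037, with the middle 90% between -0.35 and 0.41. The 10 genes most like it were Fam219aos (r = 0.76), Alg3 (0.76), Vwa5a (0.75), Bco2, Slc37a4, Zfp580, Gm9, Nacad, Mrps28 and Ift88 (0.69). They were picked as the highest of all genes tested. Their r was not read without the arrays of most extreme Abcb1a. Among members the most like it were Abcc4 (r = 0.66, rho 0.60, 0.57 without the arrays least like their groups and 0.54 without the 2 arrays of most extreme Abcb1a) and Abcc9 (r = 0.55, rho 0.50), and the least like it was Abcc1 (r = -0.49, rho -0.46). Its sister gene Abcb1b had r of 0.31 over all 24 arrays 0.036 without stimulated Syrian replicate 4 and 0.455 without the 2 arrays of most extreme Abcb1a, and Abcg2 had r of -0.018.

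**Figure D5:**
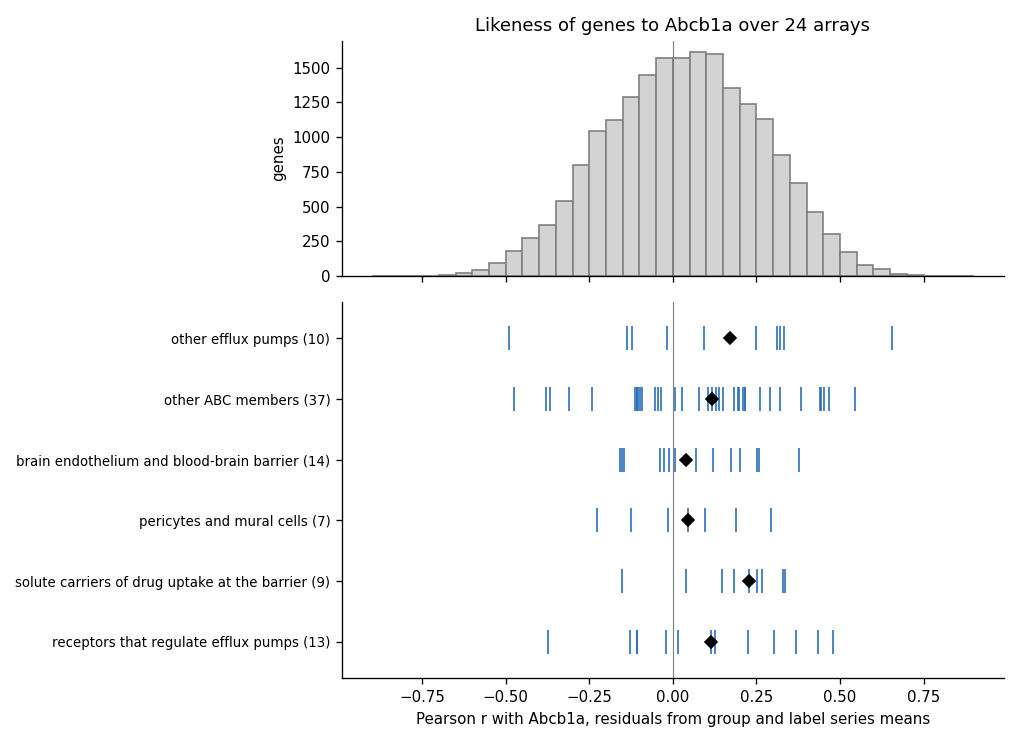
Pearson r of each gene with Abcb1a over 24 arrays, from residuals after group and label series means. The upper panel is a histogram of all other genes tested, and in the lower panel each tick is a gene of the named list and each diamond the list's median, with the number of genes in brackets. Abcc4 is the pump farthest to the right (0.66), and the 14 genes of brain endothelium lie between -0.16 and 0.38.

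Genes of the cells that carry Abcb1a in brain were read as a check. Of 15 listed genes of brain endothelium and the blood-brain barrier 14 were tested, and 9 lay above the median gene, with a median percentile of 56.3. Their r with Abcb1a ran from -0.16 to 0.38 with a median of 0.038, beside 0.037 for all genes, and 0 of 14 lay above the upper end of the middle 90% of genes. The mean of the 14 genes per array ran from 4.96 to 5.27 in naïve Syrian, 5.05 to 5.33 in stimulated Syrian, 5.01 to 5.33 in naïve GASH/Sal and 5.04 to 5.19 in stimulated GASH/Sal, so the groups overlapped. In the averaged response to sound 8 of 14 lay above 0, 57.1% beside 58.3% of all genes, with a median of 0.018. Esam, an adhesion molecule of endothelial cells, differed by 0.12 (SE 0.0559, unadjusted p = 0.0334, limma adjusted p = 0.638). Slc2a1, the glucose transporter of the barrier, differed by 0.17 (SE 0.0883, limma adjusted p = 0.682), 0.33 within series A and 0.00016 within series B, and had the highest r with Abcb1a of the list. In the averaged strain difference 4 of 14 lay above 0, with a median of -0.025. Cldn5, the claudin of endothelial tight junctions, differed by -0.16 (SE 0.0707, unadjusted p = 0.0328, limma adjusted p = 0.603), Emcn by -0.15 (SE 0.0671) and Tek by 0.13 (SE 0.0551), and none passed over all genes.

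The other genes of drug handling at the barrier were read from lists. Of 9 solute carriers that take up drugs or nutrients, of which Slco1a4 and Slco1c1 also stand among the endothelial genes, 6 lay above 0 in the averaged response to sound, with a median of 0.0094, and 4 did without stimulated Syrian replicate 4. Slc16a1, the monocarboxylate transporter of barrier endothelium, differed by 0.24 (SE 0.0848, unadjusted p = 0.00732, limma adjusted p = 0.525), 0.32 within series A and 0.16 within series B. Of 14 listed receptors and signalling genes that regulate efflux pumps, 13 were tested and 10 lay above 0, with a median of 0.055 and 0 with an unadjusted p under 0.05. Without the arrays least like their groups 7 of 13 lay above 0. Of the ABC genes without an Abc symbol, Tap1, Tap2 and Cftr, 2 of 3 lay above 0 with a median of 0.064, beside 58.3% of all genes, and 0 were called. In the Syrian response 2 of 3 lay above 0, with a median of 0.16, and in GASH/Sal 0 of 3 did, with a median of -0.031. The mean of the 3 genes per array ran from 4.23 to 4.86 in stimulated Syrian hamsters.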

How the data were processed

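The data were 24 arrays of hamster IC, 6 per group, as log2 signals of 35556 probe sets on a mouse array. The log2 values were deposited by the authors after RMA (background correction, normalisation between arrays, summary per probe set), a method named in the submitters' processing notes with no version. No column was left out (0). Precision is set by the number of arrays, which carry no read depth.

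Genes were named by GEO's platform annotation, which gave 21789 probe sets 1 symbol, 1621 several and 12146 none. The probe set with the highest mean stood for each gene, leaving 19938 genes with no filter on dim genes. Differences were fitted with limma 3.58.1 (R 4.3.3, lmFit and eBayes) over all arrays, with the 4 groups and the label series, 19 residual degrees of freedom, two-sided p-values and Benjamini-Hochberg adjustment over all genes. The code was tested on simulated data. The labels call each array a biological replicate.

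The members, lists and alternatives were chosen with earlier results of these data known. Values by array were given for Abcb1a, 5 other pumps and 4 translation factors, and for members with an unadjusted p under 0.05, the largest difference in a contrast or the extreme spread. Alternatives were the label series alone or left out, a replicate block, only the groups compared, another probe set choice, median centring, quantile normalisation, eBayes with trend, array weights, a filter on dim genes and leaving out each array. Leaving out the arrays least like their groups was chosen after seeing the data.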

Additional observations from a re-analysis of the deposited data

Results flagged for a closer look

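Within a group of 6 arrays, 18 of 192 combinations of member and group (9.38%) had 1 array far from the rest, with a gap over Dixon's 95% critical value for 6 arrays as a share of the group's range, where chance gives about 1 in 20. The arrays of stimulated Syrian replicate 4 and naïve GASH/Sal replicate 6, the least like their groups, carried 9 of the 18.

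Stimulated Syrian replicate 4 was high for Abca6 (3.86), Abcc2 (4.35), Abcc4 (5.72) and Abcg1 (7.37) and low for Abcd3 (5.73). Naïve GASH/Sal replicate 6 was high for Abcc8 (7.02) and Abcc9 (4.92) and low for Abcd3 (5.40) and Abce1 (4.46). Naïve Syrian replicate 2 was low for Abcb10 (5.13), Abce1 (4.61) and Abcf1 (6.32). Naïve Syrian replicate 6 was high for Abca7 (5.62), and naïve Syrian replicate 1 was low for Abca8a (2.98). Naïve GASH/Sal replicate 2 was low for Abcb1a (4.42), and naïve GASH/Sal replicate 5 was high for Abcb6 (6.10). Stimulated GASH/Sal replicate 5 was low for Abcd2 (3.79), and stimulated GASH/Sal replicate 4 was low for Abcg5 (3.73). All values are log2 signals, and what set these arrays apart was not tested.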

How the results depend on the processing

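The number of members called was 0 in all 7 contrasts under every alternative run, and the lowest adjusted p of any member under any of them was 0.0789, in the averaged response to sound. The Abcb1a difference kept its sign in the Syrian and averaged responses under all of them, and it passed the test under none. In the GASH/Sal response it was -0.048 in label series B alone. In the naïve strain difference it was 0.076 in series B alone, 0.0080 with median centring and 0.0024 with quantile normalisation, and in the stimulated strain difference 0.17 in series A alone, 0.040 with array weights and 0.039 without the arrays least like their groups. In the difference between responses it was 0.30 in series A alone, 0.13 with array weights and 0.095 without those arrays, and in the averaged strain difference 0.025 in series A alone and 0.0023 with median centring. Leaving out 1 array at a time, it ran from -0.10 to 0.077 in the naïve strain difference, -0.074 to 0.037 in the stimulated one, -0.10 to 0.074 in the difference between responses and -0.065 to 0.025 in the averaged strain difference. With the replicate number as a block (replicate block) the Abcb1a difference was 0.15 in both strains and 0 members were called. Replicate numbers were not taken to pair animals, because not every pair of same-numbered arrays had a correlation of deviations over 0.1. The lowest was -0.16, and the mean ran from -0.013 to 0.163, the latter for replicate 1. Among the arrays of other groups, 7 of 24 arrays were most like one of their own number. About 4 would be with no pairing and no likeness within a label series. Same-numbered arrays share a label series, which was left in these deviations, so this count cannot speak to pairing. Members with an unadjusted p under 0.05, in the order of the contrasts in the report, numbered 0 to 2, 0 to 5, 1 to 4, 1 to 3, 0 to 3, 0 to 4 and 1 to 4 over the alternatives other than leaving out 1 array. The cause of these shifts was not tested. The filter on dim genes gave no value for members under the median gene.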
